A study of Arabidopsis thaliana with 4 samples.

Results

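The 46 genes described here are the nuclear genes for the light-harvesting proteins of photosystem II (LHCB, 14 genes) and photosystem I (LHCA, 6 genes), for core and peripheral subunits of photosystem I (PSA, 12 genes) and photosystem II (PSB, 10 genes), and for the small subunit of Rubisco (RBCS, 4 genes). They were chosen by gene identifier, with earlier results of these data known, and all 46 were found among the 33602 genes of the deposited table. RNA came from guard cells of Arabidopsis thaliana, sorted by fluorescence from protoplasts of aerial tissue; the labels do not name the marker used. One group was the fama-1 mutant carrying FAMAp:FAMA-LGK, that is, FAMA-LGK driven by the promoter of FAMA itself, and the other was the wild type (WT). Both were harvested at 12 dpg, with 2 libraries per group. FAMA is the transcription factor that ends the divisions of the stomatal lineage, and FAMA-LGK is a form altered in the motif through which FAMA binds the retinoblastoma-related protein. The series describes its guard cells as differentiated and reprogrammed. The labels do not say whether libraries of a group came from separate plantings, so p-values may reflect technical spread alone.

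Photosystems are assembled from proteins encoded in the chloroplast together with proteins encoded in the nucleus and imported. The nuclear share includes the chlorophyll-binding antennae, which pass light energy to the reaction centres, and most of the subunits that dock electron carriers or hold the oxygen-evolving complex in place. Many of these genes exist as small families of related copies, a legacy of duplication, and their transcripts are a familiar measure of how photosynthetic a leaf cell is. Guard cells carry chloroplasts, though smaller and fewer ones than mesophyll cells, so the genes are normally transcribed in both cell types.

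In FAMA-LGK guard cells 38 of these 46 genes had a negative log2 fold change against WT guard cells, as did 6953 of all 15143 genes tested. LHCA6, LHCB1.5, LHCB6 and LHCB1.4 fell past the threshold of the test, 4 of 46, where 6.14% of all genes tested fell. None rose, where 6.45% of all genes did. The summed transcripts of both antennae and both photosystems were between 0.700 and 0.765 times those of WT, whereas the sum of the Rubisco small-subunit genes was 1.06 times that of WT. Within families, LHCB1.4 and LHCB1.5 fell, while LHCB2.3, LHCB4.3 and PSBO2 stood higher in both FAMA-LGK libraries without passing the test. With RBCS1A, 4 of 46 members stood higher in both, against 31.6% of all genes tested. LHCB2.3, LHCB4.3 and PSBO2 are minor copies of their families, but other minor copies did not stand higher. PSAD2 stood lower in both FAMA-LGK libraries, and PSAE2 and PSAH2 overlapped WT.

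Levels are given as TPM, a length-corrected share of all transcripts in a library that can be compared between genes. Changes are log2 fold changes of TPM + 1, FAMA-LGK minus WT, from limma, with p-values adjusted by the Benjamini-Hochberg method over the 15143 genes that averaged at least 1 TPM. A gene is said to have risen or fallen at an adjusted p below 0.05. All 46 genes passed the minimum. At an unadjusted p under 0.05, 15 members were lower and 2 higher, against 13.1% and 15.2% of all genes. Limma with voom on estimated reads called 3 members lower and 1 higher, against 7.15% and 11.1% of genes.

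The libraries differ in ways that bear on every value below. Nuclear ribosomal RNA took 33.0% and 22.3% of the TPM in FAMA-LGK and 24.2% and 27.1% in WT, and genes of the organelles took 29.8% and 30.8% in FAMA-LGK and 27.8% and 25.3% in WT. FAMA-LGK replicate 1 had the largest ribosomal share. FAMA-LGK replicate 2 had the higher TPM of its group for 36 of the 46 genes, but for 17 of 46 after these transcripts were removed and the rest rescaled. TPM keeps no library size, but read numbers were estimated from ratios of the values. They ranged from 14 to 2489 reads per member and library, with a median of 245.5. These are the smallest whole numbers that fit the ratios, so the true reads of some genes may be multiples of them. The labelled cell type was checked by markers: 9 guard cell genes summed to 2932 and 2575 TPM in FAMA-LGK and 17919 and 13810 TPM in WT, with 5 called lower and 1 higher. Most of that sum was TGG1 and TGG2, myrosinase genes, and the other 7 summed to 269 and 253 TPM in FAMA-LGK and 361 and 331 TPM in WT. Those 7 went different ways. MYB60, called higher, had 114 and 98.5 TPM in FAMA-LGK and 35.6 and 25.6 TPM in WT. GC1 had 1.13 and 2.09 TPM in FAMA-LGK and 133 and 114 TPM in WT. It was called lower, as were HT1, SLAC1, TGG1 and TGG2. KAT1, OST1 and FAMA were not called, though KAT1 lay below WT in both FAMA-LGK libraries. FAMA transcripts, which in the mutant include the transgene, stood at 94.3 and 81.2 TPM in FAMA-LGK and 66.1 and 65.6 TPM in WT. All 4 epidermis markers were higher, summing to 315 and 264 TPM in FAMA-LGK and 82.9 and 56.8 TPM in WT. The 10 mesophyll markers, none at 0, summed to 180 and 201 TPM in FAMA-LGK and 218 and 228 TPM in WT, and none was called. They are also genes of any green cell, guard cells included, so their sum does not measure mesophyll cells among the sorted ones. Of these 10, 6 are Calvin-Benson cycle genes that are also counted in that list below, and their part in the results was not tested. The 3 phloem and xylem markers and the 2 trichome markers lay below the minimum. In bulk RNA of sorted cells, fewer cells of a type and less RNA per cell cannot be told apart.

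**Figure D1:**
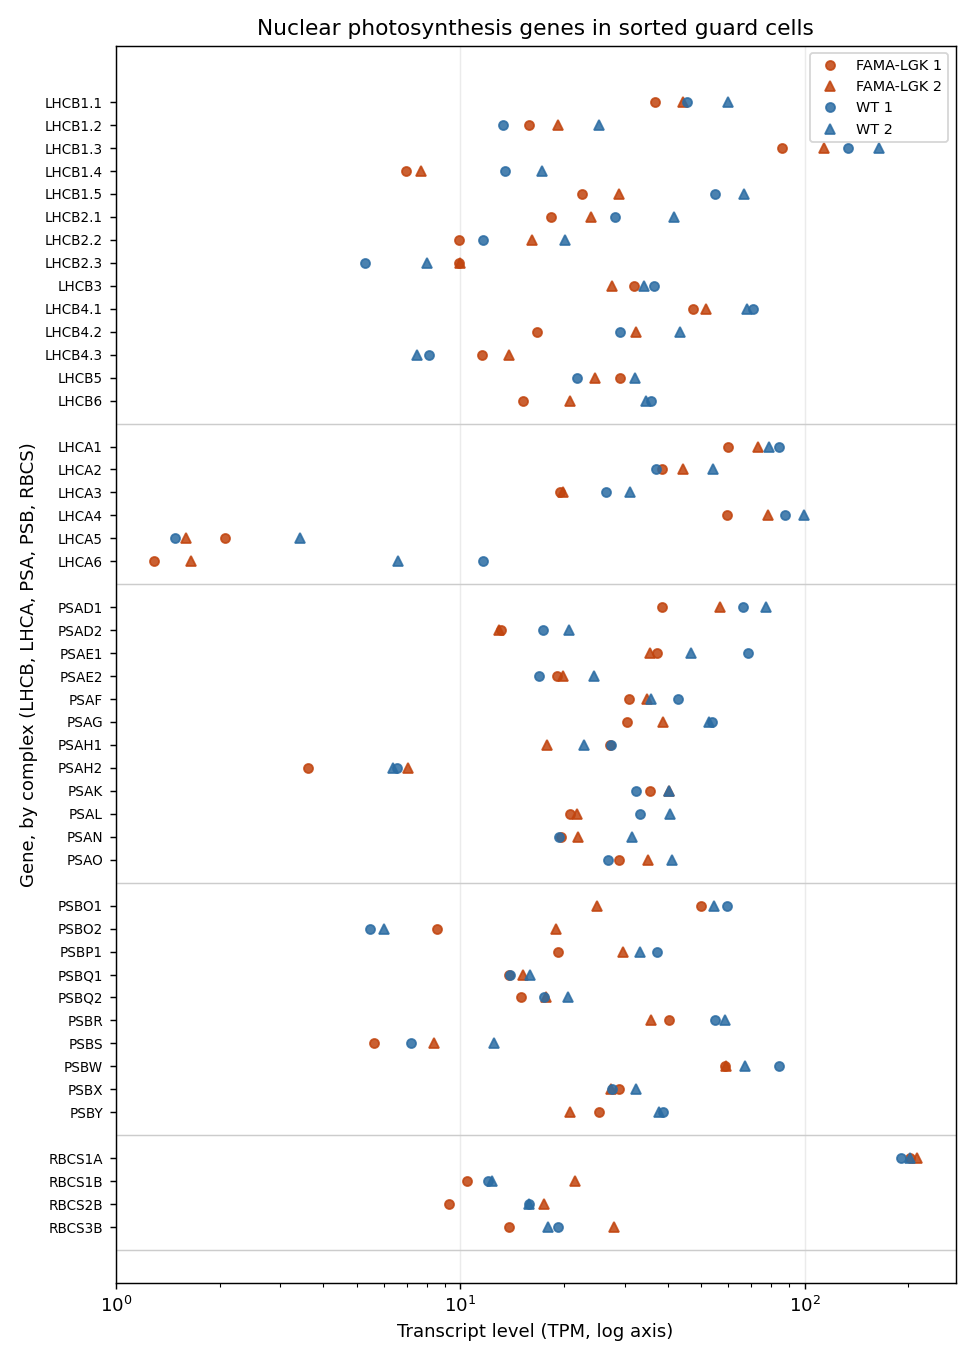
Transcript level of each of the 46 genes (TPM, log axis) in the 2 FAMA-LGK libraries (orange) and the 2 WT libraries (blue), by complex; circles are replicate 1 and triangles replicate 2. Both orange points lie left of both blue points for 23 genes (25.7% of all genes tested did so), most widely for LHCA6, and right of them for 4 genes, PSBO2, LHCB4.3, LHCB2.3 and RBCS1A (31.6% of all genes).

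The highest levels kept their order. RBCS1A, LHCB1.3, LHCA4, LHCA1 and PSBW held the 5 highest means in both genotypes, in that order. RBCS1A (AT1G67090), the main small-subunit gene, had 203 and 212 TPM in FAMA-LGK and 190 and 201 TPM in WT, above every other member in every library. LHCA4 and LHCA1 encode partners in one antenna dimer of photosystem I, and their libraries overlapped in FAMA-LGK only. LHCA4 (AT3G47470) had 59.6 and 78.4 TPM in FAMA-LGK and 87.8 and 99.6 TPM in WT. LHCA1 (AT3G54890) had 59.7 and 73.0 TPM in FAMA-LGK and 84.0 and 78.8 TPM in WT. PSBW (AT2G30570), a small photosystem II subunit, had 58.5 and 59.1 TPM in FAMA-LGK and 84.3 and 67.1 TPM in WT, so that its libraries overlapped those of LHCA1 in WT only. At the other end, LHCA6 ranked 46 of 46 in FAMA-LGK and 41 in WT, where LHCA5 was last. Between these ends the order shifted: LHCB1.5 ranked 20 in FAMA-LGK and 8 in WT, LHCB6 ranked 31 in FAMA-LGK and 22 in WT, and PSBO2 ranked 36 in FAMA-LGK and 45 in WT.

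The main antenna of photosystem II is the trimer of LHCB1, LHCB2 and LHCB3, tied to the core by the monomers LHCB4 (CP29), LHCB5 (CP26) and LHCB6 (CP24). Of the 14 LHCB genes, 3 fell and none rose, where 6.14% of all genes tested fell and 6.45% rose. The median log2 fold change was -0.42, against 0.06 over all genes tested. Before adjustment, 6 were lower and 1 higher at p under 0.05, against 13.1% and 15.2% of all genes. Voom called 2 lower and none higher, against 7.15% and 11.1% of genes. The 14 genes summed to 358 and 434 TPM in FAMA-LGK and 508 and 623 TPM in WT, and no FAMA-LGK library reached the lower WT library.

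LHCB1 is the most abundant antenna family, and the copies that fell were neighbours on the chromosome. LHCB1.5 (AT2G34420) had 22.6 and 28.9 TPM in FAMA-LGK and 55.0 and 66.6 TPM in WT, with a log2 fold change of -1.21 ± 0.23 (SE) and a limma adjusted p of 0.00816. LHCB1.4 (AT2G34430) had 6.95 and 7.68 TPM in FAMA-LGK and 13.5 and 17.3 TPM in WT, with a log2 fold change of -0.97 ± 0.26 (SE) and an adjusted p of 0.0395. Each lay below WT in both FAMA-LGK libraries with a clear gap. These genes stand head to head on chromosome 2, 1038 bases apart with no gene between them. The other 3 copies form a cluster on chromosome 1 and were not called, though LHCB1.3 had an unadjusted p of 0.0285. LHCB1.3 (AT1G29930), the strongest of all LHCB genes, had 86.1 and 113 TPM in FAMA-LGK and 134 and 164 TPM in WT (log2 fold change -0.58, adjusted p = 0.126). LHCB1.1 (AT1G29920) had 36.7 and 44.4 TPM in FAMA-LGK and 45.6 and 60.0 TPM in WT (log2 fold change -0.37), and LHCB1.2 (AT1G29910) had 15.8 and 19.2 TPM in FAMA-LGK and 13.3 and 25.2 TPM in WT (-0.07). The groups touched closely for LHCB1.1 and overlapped for LHCB1.2, whose change turns positive, 0.12, once organelle and ribosomal RNA genes are removed.

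Summed by locus, the chromosome 2 pair had 29.5 and 36.6 TPM in FAMA-LGK and 68.5 and 83.9 TPM in WT, 0.434 times the WT mean, and the chromosome 1 trio had 139 and 177 TPM in FAMA-LGK and 192 and 250 TPM in WT, 0.714 times the WT mean. The pair therefore made up 17.6% and 17.1% of LHCB1 transcripts in FAMA-LGK and 26.2% and 25.2% in WT. These shares do not depend on what else fills a library, and the highest FAMA-LGK share lay 7.59 percentage points below the lowest WT share. With 2 libraries per group an exact two-sided permutation test of such a share cannot give a p under 0.3333. The copies are alike: LHCB1.4 and LHCB1.5 share 91.4% of their coding bases, and the trio 95.6% to 96.4%. A stretch of 50 bases shared with another LHCB1 gene occurs at 13.7% of positions in LHCB1.4 and 17.3% in LHCB1.5, so some reads could have been assigned to either copy. The sources used here do not give how reads with several matches were counted. LHCB1.5 is also covered over its whole length by antisense gene models. The one of these in the table, AT2G34410, overlaps 9.47% of it and had 5.12 and 6.73 TPM in FAMA-LGK and 4.99 and 3.39 TPM in WT, and the sources used here do not give whether counting used strand.

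Whether the LHCB1 copies differed from each other in fold change was not tested. The 250 bases before the annotated start are shown for the divergent pair, which was called, and for LHCB1.3, which was not. They are from RefSeq, TAIR10.1 (the submitters name TAIR10), 5′ to 3′ on the gene's strand: LHCB1.3 at chr1:10477635-10477884 (plus strand), LHCB1.4 at chr2:14524357-14524606 (plus strand) and LHCB1.5 at chr2:14523569-14523818 (minus strand). Capitals mark CCAATC, a motif that contains the CCAAT box, where it lies on the strand shown.
LHCB1.3: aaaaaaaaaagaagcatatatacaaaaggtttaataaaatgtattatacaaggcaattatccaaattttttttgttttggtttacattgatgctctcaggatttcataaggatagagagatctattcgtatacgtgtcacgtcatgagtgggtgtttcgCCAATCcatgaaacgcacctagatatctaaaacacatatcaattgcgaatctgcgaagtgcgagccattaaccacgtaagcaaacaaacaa
LHCB1.4: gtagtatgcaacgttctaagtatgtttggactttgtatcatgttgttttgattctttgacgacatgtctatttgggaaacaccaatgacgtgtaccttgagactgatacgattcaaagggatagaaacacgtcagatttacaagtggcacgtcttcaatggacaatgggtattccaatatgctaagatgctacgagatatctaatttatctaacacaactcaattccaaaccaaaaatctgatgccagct
LHCB1.5: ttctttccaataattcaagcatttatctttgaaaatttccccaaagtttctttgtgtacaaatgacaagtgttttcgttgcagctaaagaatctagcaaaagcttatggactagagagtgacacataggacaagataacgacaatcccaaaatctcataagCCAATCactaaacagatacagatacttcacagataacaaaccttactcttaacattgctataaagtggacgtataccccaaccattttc
LHCB1.5, which fell, and LHCB1.3, which did not pass the test, both carry CCAATC, 89 and 91 bases before the start. LHCB1.4, which fell, has no match to CCAATC in this window, though the shorter CCAAT occurs in it.

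LHCB2 supplies an antenna protein that the STN7 kinase phosphorylates in state transitions, when light capture shifts between photosystems. LHCB2.1 (AT2G05100) had 18.4 and 24.0 TPM in FAMA-LGK and 28.2 and 41.7 TPM in WT (log2 fold change -0.68, adjusted p = 0.120). LHCB2.2 (AT2G05070) had 9.93 and 16.1 TPM in FAMA-LGK and 11.6 and 20.1 TPM in WT (-0.26, adjusted p = 0.657). LHCB2.3 (AT3G27690) had 9.94 and 10.0 TPM in FAMA-LGK and 5.28 and 7.98 TPM in WT (0.55, adjusted p = 0.250). LHCB2.1 was lower in both FAMA-LGK libraries, LHCB2.2 overlapped, and LHCB2.3 was higher in both, but no copy passed the test. Within the family LHCB2.3 had a larger share in FAMA-LGK than in WT: it held 26.0% and 20.0% of LHCB2 transcripts in FAMA-LGK and 11.7% and 11.4% in WT, while LHCB2.1 held 48.1% and 47.9% in FAMA-LGK and 62.5% and 59.7% in WT. An antisense gene, AT3G27700, overlaps 40.6% of LHCB2.3 and had 12.6 and 14.1 TPM in FAMA-LGK and 13.7 and 11.8 TPM in WT. LHCB2.3 shares no stretch of 50 bases with LHCB2.1 or LHCB2.2.

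The starts of LHCB2.1 and LHCB2.3 are shown because their fold changes had opposite signs. Neither copy passed the test, and the difference between them was not tested. The windows are chr2:1824481-1824730 (minus strand) for LHCB2.1 and chr3:10255656-10255905 (plus strand) for LHCB2.3, in the same build. Capitals mark CCAATC in both, GATAAG (the I-box) in LHCB2.1 and CACGTG (the G-box, a binding motif of light-signalling factors) in LHCB2.3.
LHCB2.1: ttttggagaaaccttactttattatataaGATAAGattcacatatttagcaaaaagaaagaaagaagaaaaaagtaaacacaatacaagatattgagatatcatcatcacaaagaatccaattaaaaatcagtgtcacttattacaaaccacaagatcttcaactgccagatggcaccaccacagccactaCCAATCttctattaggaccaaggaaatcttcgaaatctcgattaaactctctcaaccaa
LHCB2.3: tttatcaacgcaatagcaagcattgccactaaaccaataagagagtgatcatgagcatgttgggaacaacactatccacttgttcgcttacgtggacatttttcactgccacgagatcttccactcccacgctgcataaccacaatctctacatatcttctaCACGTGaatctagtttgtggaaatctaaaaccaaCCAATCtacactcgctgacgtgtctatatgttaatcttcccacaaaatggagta
Both copies have CCAATC at nearly the same distance, 59 bases before the start in LHCB2.1 and 54 in LHCB2.3. The G-box of LHCB2.3, 88 bases before the start, has no counterpart in the window of LHCB2.1.

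Over the whole set, CCAATC was found mostly in antenna genes. Searched on both strands in windows of the same length, it occurred in 7 of 14 LHCB and 3 of 6 LHCA genes, in none of the 12 PSA or 4 RBCS genes, in 1 of 10 PSB genes, and in 10.2% of 27443 protein-coding genes. The G-box CACGTG occurred in 9 of 46 members and 6.49% of all genes, and the I-box GATAAG in 10 of 46 and 12.3%. None of the 3 motifs contains another, and the counts describe letters in the windows, not binding.

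The monomeric antennae of photosystem II differed in their values. LHCB6 (AT1G15820), whose protein CP24 links trimers to the core, had 15.2 and 20.8 TPM in FAMA-LGK and 35.9 and 34.6 TPM in WT, with a log2 fold change of -0.95 ± 0.24 (SE) and a limma adjusted p of 0.0287. LHCB5 (AT4G10340) had 29.2 and 24.5 TPM in FAMA-LGK and 21.8 and 32.1 TPM in WT, a log2 fold change of 0.01. The groups were far apart for LHCB6 and interleaved for LHCB5. Antisense models cover 20.4% of LHCB6, and the one in the table, AT1G15810, had 8.24 and 9.26 TPM in FAMA-LGK and 6.59 and 4.22 TPM in WT.

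In the LHCB4 family of CP29, LHCB4.3 had a larger share in FAMA-LGK than in WT. LHCB4.1 (AT5G01530) had 47.3 and 51.6 TPM in FAMA-LGK and 71.0 and 68.2 TPM in WT (log2 fold change -0.48, adjusted p = 0.149). LHCB4.2 (AT3G08940) had 16.7 and 32.3 TPM in FAMA-LGK and 29.0 and 43.5 TPM in WT (-0.59, adjusted p = 0.268). LHCB4.3 (AT2G40100), a rarer form also called LHCB8, had 11.5 and 13.9 TPM in FAMA-LGK and 8.08 and 7.47 TPM in WT (0.64, adjusted p = 0.142). Both FAMA-LGK libraries lay below WT for LHCB4.1 and above WT for LHCB4.3. LHCB4.3 held 15.2% and 14.2% of LHCB4 transcripts in FAMA-LGK and 7.48% and 6.27% in WT. The LHCB4 copies share no stretch of 50 bases, and LHCB4.3 has no antisense model over it. With organelle and ribosomal RNA genes removed, LHCB4.3 was called higher (adjusted p = 0.0476). LHCB3 (AT5G54270), the single-copy trimer gene, had 31.9 and 27.5 TPM in FAMA-LGK and 36.5 and 34.1 TPM in WT (log2 fold change -0.24).

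**Figure D2:**
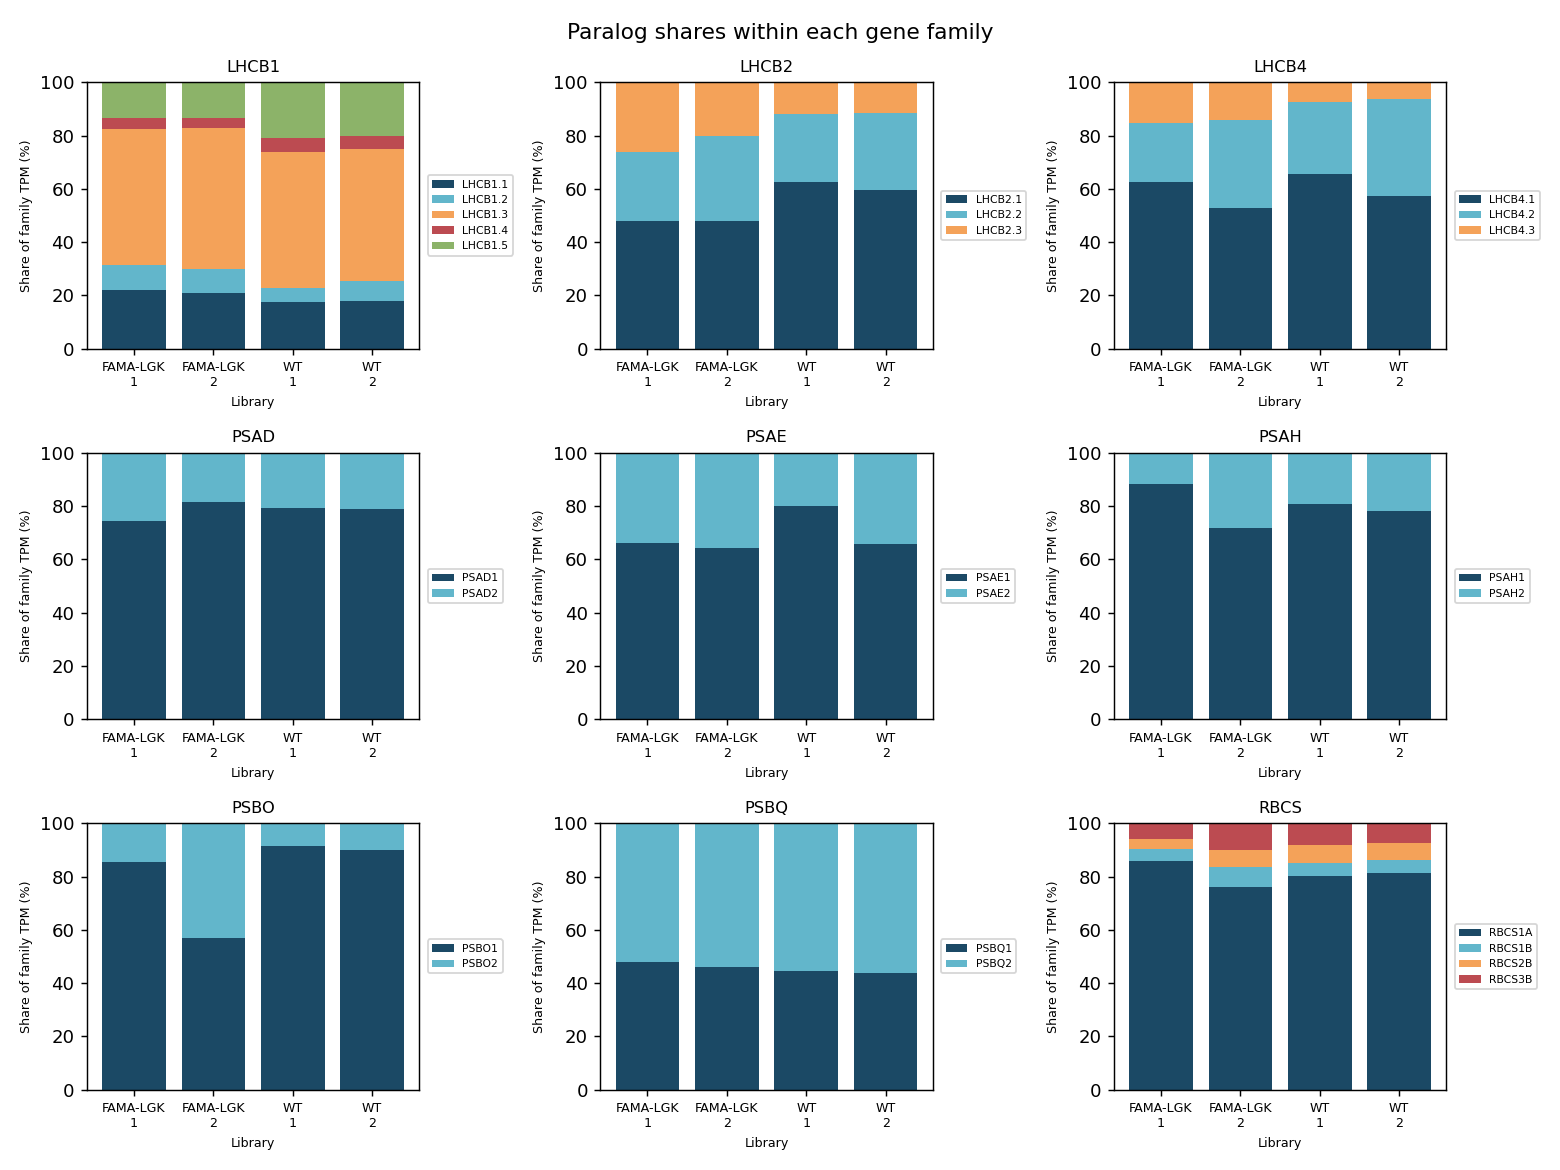
Share of each copy in the summed TPM of its family (%, stacked bars to 100) in the FAMA-LGK and WT libraries, for the 9 families with more than one member. The LHCB1.5 segment is narrower in both FAMA-LGK bars, at 13.4% and 13.5%, than in the WT bars, at 21.1% and 20.0%, and the LHCB2.3, LHCB4.3 and PSBO2 segments are wider.

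The antenna of photosystem I is a belt of LHCA1 to LHCA4, while LHCA5 and LHCA6 are scarce proteins that join photosystem I to the NDH complex of cyclic electron flow. LHCA6 (AT1G19150) had the largest fold change of the 46 genes. It had 1.29 and 1.65 TPM in FAMA-LGK and 11.7 and 6.60 TPM in WT, from 14 and 18 recovered reads in FAMA-LGK and 129 and 83 in WT. Its log2 fold change was -1.99 ± 0.36 (SE), with a limma adjusted p of 0.00648, and the WT mean was 6.22 times that of FAMA-LGK. LHCA6 shares no stretch of 50 bases with any gene and no antisense model lies over it. LHCA5 (AT1G45474), its functional partner, had 2.07 and 1.59 TPM in FAMA-LGK and 1.48 and 3.42 TPM in WT (log2 fold change -0.23, SE 0.41), and its groups overlapped, so no change was detectable at this level.

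The belt genes had smaller changes, and none passed the test. LHCA3 (AT1G61520) had 19.5 and 19.9 TPM in FAMA-LGK and 26.4 and 31.1 TPM in WT (log2 fold change -0.52, adjusted p = 0.161). LHCA4 and LHCA1, with the levels given above, had log2 fold changes of -0.45 and -0.30. LHCA2 (AT3G61470) had 38.4 and 44.4 TPM in FAMA-LGK and 37.0 and 54.2 TPM in WT (-0.12), a change that turns positive, 0.08, under the removal. The FAMA-LGK libraries lay below WT for LHCA1, LHCA3 and LHCA4 and overlapped WT for LHCA2. The 6 genes summed to 181 and 219 TPM in FAMA-LGK and 248 and 274 TPM in WT, 0.765 times the WT mean.

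The PSA genes encode the stromal, membrane and lumenal subunits around the photosystem I reaction centre. Limma called none of the 12 in either direction, against 12.6% of all genes. At an unadjusted p under 0.05, 4 were lower, against 13.1% of all genes. Voom called none, against 7.15% of genes lower and 11.1% higher. Their median log2 fold change was -0.27, 11 of 12 changes were negative, and 6 had both FAMA-LGK libraries below both of WT, against 25.7% of all genes. They summed to 305 and 343 TPM in FAMA-LGK and 412 and 440 TPM in WT, 0.760 times the WT mean. The nearest to a call was PSAL (AT4G12800), which helps dock the mobile antenna, with 20.9 and 21.8 TPM in FAMA-LGK and 33.3 and 40.6 TPM in WT (log2 fold change -0.76 ± 0.22 SE, adjusted p = 0.0517). PSAL was called lower with median-ratio scaling (adjusted p = 0.0300) and with a minimum of 5 TPM (0.0406). Antenna docking also involves PSAH and PSAO, which came nowhere near a call. PSAO (AT1G08380) had 28.8 and 35.1 TPM in FAMA-LGK and 26.8 and 41.2 TPM in WT (-0.06). PSAH1 (AT3G16140) had 27.3 and 17.8 TPM in FAMA-LGK and 27.4 and 22.8 TPM in WT (-0.17), and PSAH2 (AT1G52230) had 3.61 and 7.05 TPM in FAMA-LGK and 6.53 and 6.37 TPM in WT (-0.29). The groups overlapped for all 3.

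PSAG (AT1G55670), an antenna-side membrane subunit, had 30.4 and 38.7 TPM in FAMA-LGK and 53.8 and 52.8 TPM in WT (log2 fold change -0.62, adjusted p = 0.0939). Its relative PSAK (AT1G30380) had 35.6 and 40.3 TPM in FAMA-LGK and 32.5 and 40.2 TPM in WT (0.07), with overlapping groups, and the difference between these relatives was not tested. PSAD and PSAE form the docking site of ferredoxin. PSAD1 (AT4G02770) had 38.5 and 56.7 TPM in FAMA-LGK and 66.4 and 76.9 TPM in WT (-0.60, adjusted p = 0.133), and its copy PSAD2 (AT1G03130) had 13.1 and 13.0 TPM in FAMA-LGK and 17.4 and 20.7 TPM in WT (-0.51). Both PSAD copies lay below WT by like amounts, and PSAD1 kept 74.6% and 81.4% of the family in FAMA-LGK against 79.2% and 78.8% in WT. PSAE1 (AT4G28750) had 37.1 and 35.6 TPM in FAMA-LGK and 68.6 and 46.6 TPM in WT (-0.62, adjusted p = 0.119), whereas PSAE2 (AT2G20260) had 19.1 and 19.8 TPM in FAMA-LGK and 16.9 and 24.5 TPM in WT (-0.06). The PSAE1 libraries of FAMA-LGK lay below WT and those of PSAE2 fell between the WT libraries. At the plastocyanin side, PSAF (AT1G31330) had 30.9 and 34.8 TPM in FAMA-LGK and 42.7 and 35.7 TPM in WT (-0.25), and PSAN (AT5G64040) had 19.6 and 21.9 TPM in FAMA-LGK and 19.3 and 31.5 TPM in WT (-0.24).

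The PSB genes cover the oxygen-evolving complex, the small membrane subunits and PSBS, the sensor of photoprotective quenching. Limma called none of the 10, against 12.6% of all genes in either direction. Before adjustment, 3 were lower and 1 higher at p under 0.05, against 13.1% and 15.2% of all genes. Voom called 1 higher, against 11.1% of genes. Their sum was 265 and 258 TPM in FAMA-LGK and 346 and 339 TPM in WT, 0.764 times the WT mean and tight within each genotype, but the groups overlapped once organelle and ribosomal RNA genes were removed. PSBY (AT1G67740), a small subunit beside cytochrome b559, had 25.3 and 20.8 TPM in FAMA-LGK and 38.8 and 37.6 TPM in WT (log2 fold change -0.71 ± 0.22 SE, adjusted p = 0.0631). PSBR (AT1G79040), which stabilises the oxygen-evolving proteins, had 40.4 and 35.7 TPM in FAMA-LGK and 54.7 and 58.8 TPM in WT (-0.57, adjusted p = 0.106). Both lay below WT in both libraries, as did PSBW, PSBO1 and PSBP1, and PSBY was called with median-ratio scaling (adjusted p = 0.0424). PSBP1 (AT1G06680), an extrinsic protein of the same complex, had 19.2 and 29.7 TPM in FAMA-LGK and 37.3 and 33.3 TPM in WT (-0.54, adjusted p = 0.197), and PSBX (AT2G06520), another small subunit, had 28.9 and 27.5 TPM in FAMA-LGK and 27.5 and 32.3 TPM in WT (-0.08). PSBS (AT1G44575) had 5.60 and 8.40 TPM in FAMA-LGK and 7.17 and 12.5 TPM in WT (-0.42), and the groups overlapped for it and for PSBX.

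PSBO, the manganese-stabilising protein, is made from a major and a minor copy whose balance differed between the groups. PSBO1 (AT5G66570) had 49.8 and 24.97 TPM in FAMA-LGK and 59.6 and 54.6 TPM in WT (log2 fold change -0.68, adjusted p = 0.174). PSBO2 (AT3G50820) had 8.57 and 18.996 TPM in FAMA-LGK and 5.46 and 6.01 TPM in WT (1.04 ± 0.36 SE, adjusted p = 0.0876). Both FAMA-LGK libraries lay below WT for PSBO1 and above WT for PSBO2, but they were far apart from each other: FAMA-LGK replicate 2 had both the lowest PSBO1 and the highest PSBO2. PSBO2 made up 14.7% and 43.2% of the family in FAMA-LGK and 8.39% and 9.92% in WT. The value depends on which library is kept: PSBO2 was called higher without FAMA-LGK replicate 1 (log2 fold change 1.57, adjusted p = 0.0207) and had 0.51 without FAMA-LGK replicate 2. It was also called higher with organelle and ribosomal RNA genes removed (1.28, adjusted p = 0.0222) and by voom (adjusted p = 0.0276). The copies are 83.6% identical in their coding bases and share no stretch of 50 bases. PSBQ, another extrinsic protein of the complex, is made from copies of near-equal level. PSBQ1 (AT4G21280) had 13.9 and 15.2 TPM in FAMA-LGK and 14.0 and 16.0 TPM in WT. PSBQ2 (AT4G05180) had 15.0 and 17.7 TPM in FAMA-LGK and 17.5 and 20.6 TPM in WT, and the groups overlapped for both.

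**Figure D3:**
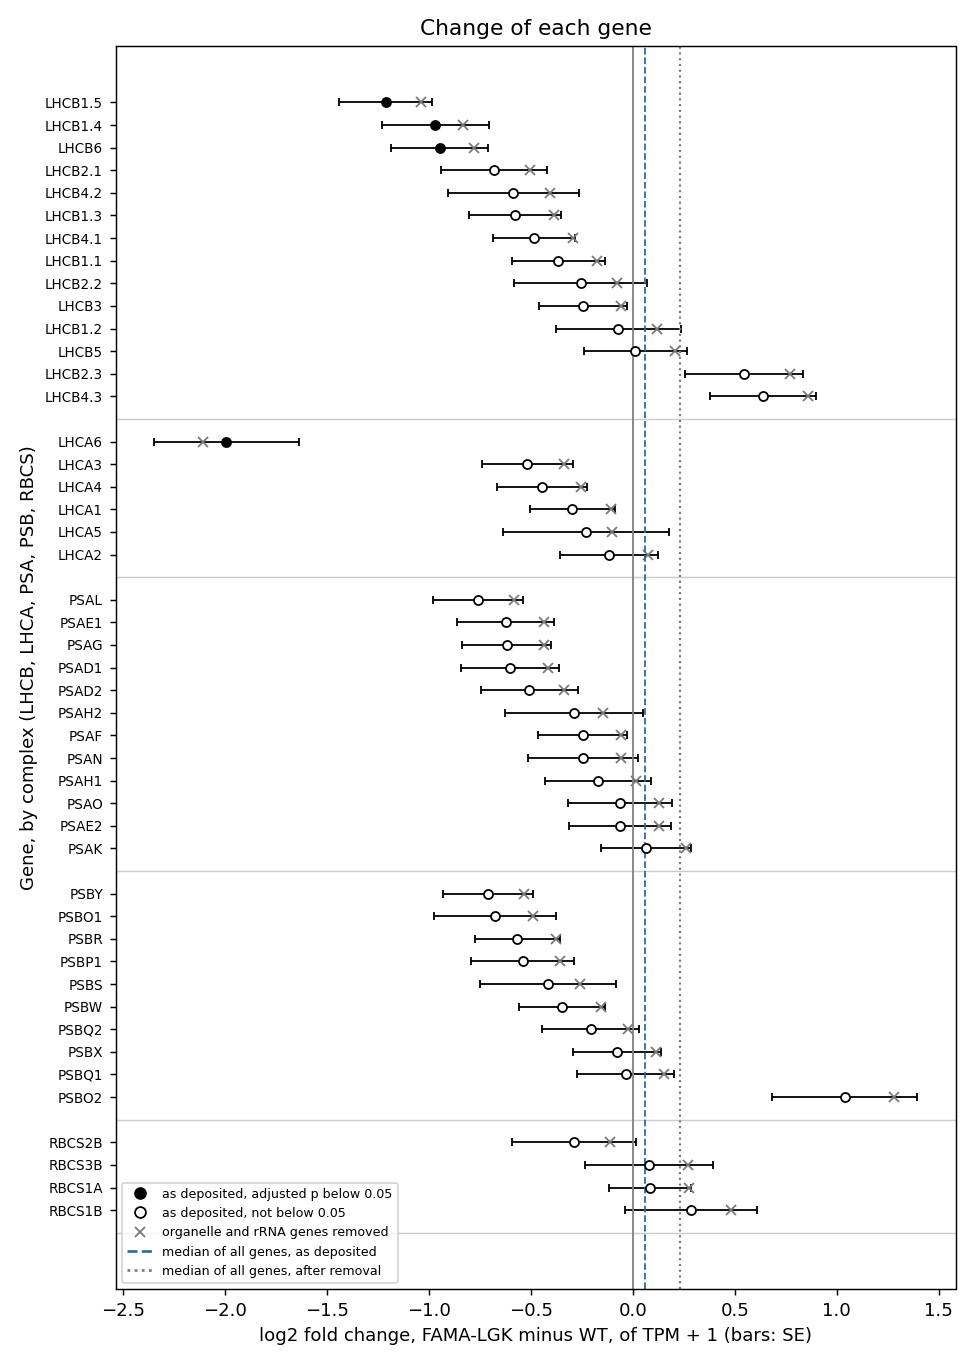
Log2 fold change of TPM + 1, FAMA-LGK minus WT, for each gene by complex, with SE bars; filled points have an adjusted p below 0.05, crosses show the change after organelle and ribosomal RNA genes are removed, and vertical lines are medians over all genes. LHCA6, LHCB1.5, LHCB1.4 and LHCB6 are the filled points, and PSBO2, LHCB4.3 and LHCB2.3 lie farthest to the right.

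The small subunit of Rubisco is encoded by RBCS1A on chromosome 1 and by a cluster of 3 genes on chromosome 5. Limma and voom called none of the 4, and none had an unadjusted p under 0.05. Over all genes tested, limma called 12.6%, and voom 7.15% lower and 11.1% higher. At an unadjusted p under 0.05, 13.1% of all genes were lower and 15.2% higher. With only 4 genes, an absence of calls does not set RBCS apart from those shares. RBCS1A had a log2 fold change of 0.08 ± 0.20 (SE), with both FAMA-LGK libraries barely above WT. The cluster summed to 33.5 and 66.9 TPM in FAMA-LGK and 47.0 and 46.2 TPM in WT, so that the FAMA-LGK libraries lay on either side of WT. RBCS1B (AT5G38430) had 10.45 and 21.5 TPM in FAMA-LGK and 12.0 and 12.3 TPM in WT. RBCS2B (AT5G38420) had 9.25 and 17.5 TPM in FAMA-LGK and 15.9 and 15.8 TPM in WT. RBCS3B (AT5G38410) had 13.8 and 27.8 TPM in FAMA-LGK and 19.2 and 18.0 TPM in WT. All 3 were higher in FAMA-LGK replicate 2 than in replicate 1, and the groups overlapped. The 4 genes summed to 236 and 279 TPM in FAMA-LGK and 237 and 248 TPM in WT, 1.06 times the WT mean. That sum depends on the scaling and on 1 library: it was 1.21 times the WT mean with organelle and ribosomal RNA genes removed, and its log2 ratio was -0.04 without FAMA-LGK replicate 2. The 3 cluster genes share 13.98% to 21.4% of their 50-base stretches with other members, and RBCS1B and RBCS2B are 97.3% identical, so their separate values are uncertain. RBCS1A shares 1.48%.

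Set against each other within a library, the complexes changed their proportions mainly at RBCS. Such shares depend on each other. The RBCS sum itself was 1.06 times the WT mean with overlapping groups, while both antennae and both photosystems had 0.700 to 0.765 times. RBCS is also mostly 1 gene: RBCS1A held 85.8% and 76.0% of it in FAMA-LGK and 80.2% and 81.4% in WT. RBCS took 17.6% and 18.2% of the transcripts of the 46 genes in FAMA-LGK and 13.5% and 12.9% in WT. LHCB took 26.6% and 28.3% in FAMA-LGK and 29.0% and 32.4% in WT, and PSA 22.7% and 22.3% in FAMA-LGK and 23.5% and 22.9% in WT. For these complexes the groups did not overlap, with a gap of 0.679 percentage points for LHCB, 0.212 for PSA and 4.02 for RBCS. LHCA and PSB overlapped, at 13.4% to 14.3% and 16.8% to 19.8% over the 4 libraries. The smallest p an exact permutation test could give here is 0.3333, which RBCS, LHCB and PSA reached.

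**Figure D4:**
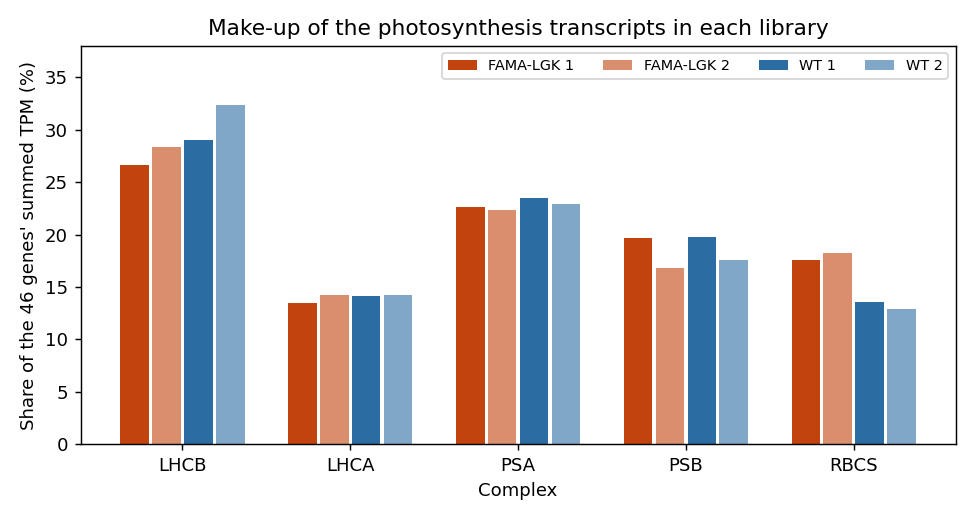
Share of each complex in the summed TPM of the 46 genes (%) in each FAMA-LGK (orange) and WT (blue) library. The RBCS bars of FAMA-LGK, 17.6% and 18.2%, stand above those of WT, 13.5% and 12.9%, while the bars of LHCA and PSB overlap.

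Over all 46 genes the sum was 1345 and 1533 TPM in FAMA-LGK and 1752 and 1923 TPM in WT, 0.783 times the WT mean. The median log2 fold change was -0.29, and 38 of 46 were negative. Both FAMA-LGK libraries lay below both WT libraries for 23 members (50%), against 25.7% of all genes, and above them for 4 members (8.7%), against 31.6% of all genes. The size of this depends on the scaling. With organelle and ribosomal RNA genes removed, the median over all genes shifted to 0.23 and that of the members to -0.13, so the members' median lay at -0.36 from that of all genes, and at -0.35 as deposited. Under that scaling 31 members were negative, as were 5394 of 14873 genes, 17 (37%) lay below WT against 19.7% of genes, the summed ratio was 0.896, and 3 members were called lower and 2 higher, against 5.26% and 11% of genes. Across the scalings LHCB1.2, LHCB5, LHCA2, PSAE2, PSAH1, PSAO, PSBQ1 and PSBX changed sign, and all 8 had small changes throughout.

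The 4 calls rest on few libraries. Without either WT library limma called 0 genes of any kind, with 2675 genes at an unadjusted p under 0.05 without WT replicate 1 and 2365 without WT replicate 2, and the smallest adjusted p was 0.0614 and 0.0553. LHCA6 and LHCB1.5 kept their calls without either FAMA-LGK library, LHCB6 was no longer called when FAMA-LGK replicate 1 was left out (adjusted p = 0.0913), nor was LHCB1.4 when replicate 1 (0.101) or replicate 2 (0.0658) of FAMA-LGK was. LHCB1.4 also missed the threshold with organelle and ribosomal RNA genes removed (0.0602) and with voom (0.0568), LHCB6 (0.0840) and LHCB1.4 (0.0752) missed it without the variance trend, and all 4 missed it with no minimum on TPM. The direction of all 4 was the same in every one of these fits.

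Genes that work beside the 46 had few calls. Over all genes tested, limma called 6.14% lower and 6.45% higher, and voom 7.15% and 11.1%. Before adjustment, 13.1% were lower and 15.2% higher at p under 0.05. Of 19 Calvin-Benson cycle genes tested, none was called by limma or voom, with 1 at an unadjusted p under 0.05, and the median was -0.02. Of 14 genes for electron carriers and the ATP synthase, limma and voom called none, with 3 lower at an unadjusted p under 0.05 and a median of -0.14. The nearest to a call there was PETE1, a plastocyanin gene, with 3.44 and 3.06 TPM in FAMA-LGK and 7.47 and 7.53 TPM in WT (log2 fold change -1.003, adjusted p = 0.0546). Both PETE1 libraries of FAMA-LGK lay below WT.

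Chlorophyll synthesis, which feeds the antennae, had 2 of 21 genes lower and none higher by limma, against 6.14% and 6.45% of all genes. Before adjustment, 2 were lower and 2 higher at p under 0.05, against 13.1% and 15.2%. Voom called 2 lower and 1 higher, against 7.15% and 11.1%. HEMA1, the glutamyl-tRNA reductase at the entry of the pathway, had 45.8 and 54.8 TPM in FAMA-LGK and 90.0 and 95.9 TPM in WT (log2 fold change -0.88, adjusted p = 0.0223). The light-dependent protochlorophyllide oxidoreductases differed among themselves: PORC had 0.619 and 0.686 TPM in FAMA-LGK and 2.57 and 4.11 TPM in WT (-1.37, adjusted p = 0.0477), while PORB had 5.99 and 5.54 TPM in FAMA-LGK and 2.12 and 2.35 TPM in WT (1.06, adjusted p = 0.0565). PORA had 1.91 and 4.63 TPM in FAMA-LGK and 0.468 and 0.515 TPM in WT (1.44, adjusted p = 0.0595). PORA and PORB were called higher once organelle and ribosomal RNA genes were removed (adjusted p = 0.0322 and 0.0320), and PORC was then not called (0.0577). Of 17 genes for antenna insertion, state transitions and photoprotection, 1 fell: ZEP, zeaxanthin epoxidase, with 10.8 and 11.8 TPM in FAMA-LGK and 21.6 and 26.3 TPM in WT (-1.02, adjusted p = 0.0223). Over all genes tested, 6.14% fell. At an unadjusted p under 0.05, 4 of the 17 were lower and 1 higher, against 13.1% and 15.2% of all genes. Voom called 3 lower, against 7.15% of genes. STN7, the kinase of state transitions, had 5.20 and 6.15 TPM in FAMA-LGK and 11.3 and 11.8 TPM in WT (-0.91, adjusted p = 0.0543).

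A list of photosynthesis regulators, made up of transcription factors, GUN1 and plastid sigma factors, had no calls among 12 tested by limma or voom. Over all genes tested, limma called 12.6% in either direction, and voom 7.15% lower and 11.1% higher. At an unadjusted p under 0.05, 2 were higher, against 15.2% of all genes. GLK1, a master regulator of antenna genes, had 14.6 and 22.7 TPM in FAMA-LGK and 16.96 and 20.6 TPM in WT (log2 fold change -0.03 ± 0.27 SE). GLK2 had 1.44 and 7.69 TPM in FAMA-LGK and 3.76 and 1.18 TPM in WT, with a wide spread in each group. The groups overlapped for both GLK genes.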

How the data were processed

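RNA of sorted guard cells was measured in 2 FAMA-LGK and 2 WT libraries. The authors deposited 1 table of TPM values for 33602 genes, made from HTSeq counts of reads per gene, per the labels. The submitters' processing notes name CASAVA 1.8.2, Bowtie2, HTSeq and TAIR10. Strand, read length and multiple matches are not covered by the sources used here.

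Members were found by identifier. They and every gene list were chosen with earlier results of these data known. PETE1, PORA, PORB, STN7, HY5, SIG4, GLK1 and GLK2 were picked after their values were seen. The 15143 genes averaging 1 TPM or more were fitted as log2(TPM + 1) by limma (version 3.58.1, R 4.3.3), with a variance trend (prior degrees of freedom 7.73), and tested two-sided with Benjamini-Hochberg adjustment over all of them at 0.05. The pseudocount understates changes of low genes. Named members are those past the threshold, the next 6 by p, the strongest of each complex and families whose copies differ by at least 1 on the log2 scale, with the rest given for completeness. Leaving out 1 library assumes that the lone library varies like the other group. Removal took out 279 organelle genes and 4 nuclear ribosomal RNA genes. Smallest whole read numbers were recovered for 15054 of 15077 genes (99.8%, tolerance 0.0005), and voom used them as reads. In a control of 1000 genes 96.8% came out whole with at most 3000 reads per library, against 7.0% after 1 library was shuffled. The recovery also allowed larger read numbers, which the control did not cover. Names, antisense models, shared 50-base stretches and the 250-base windows came from the RefSeq TAIR10.1 annotation (32835 identifiers matched, all 46 members). Same-numbered libraries deviated together with a correlation of 0.078 over 2 pairs, so the numbers were not taken as pairs.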

Additional observations from a re-analysis of the deposited data

How the results depend on the processing

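All 4 called members kept their direction under every alternative run. Without a minimum, 266 genes were called lower, 245 higher and 0 members. Without a variance trend, 595 genes and 2 members were lower. Median-ratio scaling gave 1218 genes and 7 members lower and a PSB summed log2 ratio of -0.44. With organelle and ribosomal RNA genes removed, 1629 genes and 2 members were higher, 67.5% of calls were higher against 51.2% as deposited, the median member change was -0.13, and the summed log2 ratios were -0.20 for LHCA, -0.20 for PSA, -0.18 for PSB and 0.28 for RBCS. Voom, added after the data were seen, called 1676 genes and 1 member higher. With the replicate block, 1479 genes and 1 member were higher, and 1365 genes and 6 members lower. The causes of these moves were not tested. Leaving out 1 library in turn gave 0 to 1074 genes lower, 0 to 816 higher, 0 to 4 members lower, 0 to 1 higher, median member changes of -0.46 to -0.20 and RBCS summed log2 ratios of -0.038 to 0.20, with the 0 counts lower from leaving out either WT library. LHCA6 rests on 14 and 18 reads in FAMA-LGK and 129 and 83 in WT, the fewest reads of the 4 called members. With 2 libraries per group, changes the size of most of these could not be told from the spread.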
